A study of Mus musculus with 352 samples.

Results

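Described here are 6 genes of muscle protein breakdown in mouse tibialis anterior, a fast muscle of the lower leg. They were taken by symbol, through their Ensembl identifiers, from a table of 14413 genes, and all 6 were among the 9862 genes kept for testing. Of these, 3 encode ubiquitin ligases of muscle atrophy, Fbxo32 (atrogin-1, also MAFbx), Trim63 (MuRF1) and Fbxo30 (MUSA1). The other 3 encode the forkhead transcription factors Foxo1, Foxo3 and Foxo4. The study measured RNA of whole muscle by sequencing in mice of strain C57BL/6, in 15 groups of 22 to 25 mice, with 3 to 5 mice killed at each of 6 zeitgeber times (ZT, hours after lights on). Samples were taken every 4 h, at ZT 0, 4, 8, 12, 16 and 20.

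The mice carried or lacked the clock gene Bmal1 (Arntl) in chosen tissues. RE-RE mice were homozygous for a Bmal1 allele blocked by a floxed stop cassette (stopFL/stopFL) and carried both Hsa-Cre and Syt10-Cre, transgenes in which the skeletal actin promoter drives Cre in skeletal muscle and the Syt10 gene drives it in brain. Br-RE mice had the same blocked alleles with Syt10-Cre alone, Mu-RE mice had them with Hsa-Cre alone, and KO mice had them with no Cre. WT mice were wild type. Each of these 5 genotypes was sampled at 10 to 12 weeks (called 10 weeks below) and at 26 weeks under ad libitum feeding (ALF). At 26 weeks, Mu-RE, KO and WT mice were also sampled under time-restricted feeding (TRF), whose hours the labels do not give. Old wild-type mice of 85 to 116 weeks were sampled under TRF and under ALF.

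Atrophy ligases mark muscle proteins with ubiquitin for the proteasome, and their transcripts are classic markers of wasting in fasting, denervation and glucocorticoid excess. FOXO factors enter the nucleus when insulin and growth factor signalling through Akt is low, and there they switch on Fbxo32, Trim63, Fbxo30 and genes of autophagy. The glucocorticoid receptor acts on Trim63 together with FOXO1, and the clock, feeding and adrenal hormones each give both pathways a daily course.

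Promoter sequences of RefSeq (GRCm38.p6) were at hand for 4 of the 6 genes, Trim63, Fbxo30, Foxo1 and Foxo3. The window of 300 bases runs from 250 bases before to 50 bases after the start that RefSeq gives, which for Trim63 is also the start of the GENCODE gene and for Fbxo30, Foxo1 and Foxo3 is not. That of Trim63 (chr4:134314870-134315169, + strand) is shown because it alone among these 4 held any of the 3 motifs searched on both strands, the FOXO core TGTTTAC, the E-box CACGTG and the glucocorticoid receptor half-site AGAACA. Capitals mark the half-site on the opposite strand, 200 to 195 bases before the start, and directly after it the FOXO core, 194 to 188 bases before the start, which do not overlap.
Trim63: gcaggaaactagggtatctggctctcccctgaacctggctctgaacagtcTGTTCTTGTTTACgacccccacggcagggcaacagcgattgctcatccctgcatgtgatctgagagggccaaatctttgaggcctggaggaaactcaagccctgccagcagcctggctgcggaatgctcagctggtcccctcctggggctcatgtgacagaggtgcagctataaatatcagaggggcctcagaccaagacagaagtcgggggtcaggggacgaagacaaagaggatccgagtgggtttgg
Of 32851 mouse promoter windows of this length, 3.65% held the FOXO core, 7.15% the E-box and 19% the half-site, so the last is common by its letters alone. A match describes the letters and is not evidence of binding.

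Sequencing depth, recovered from the spacing of low values, had a median of 22.3 M reads over the libraries and reached from 14.7 to 47 M. Arntl itself, the targeted gene, averaged 3.42 to 3.70 log2 FPKM in the KO groups, against 2.59 to 2.77 in the WT groups, so its level was not lower in KO. Whether the counted reads come from the blocked allele was not tested. Its daily amplitude was 0.06 to 0.18 in the KO groups, against 1.08 to 1.69 in the WT groups. Dbp, a direct clock target, averaged 0.20 to 0.34 log2 FPKM in the KO groups, against 3.04 to 3.33 in the WT groups. Skeletal muscle markers were the highest of the marker lists, with a median sum of 37110 to 44770 FPKM in the KO, old and WT groups. The deposited values had been centred so that sexes were equal and the Br-RE and RE-RE libraries together matched the other libraries of their age. Levels of Br-RE and RE-RE are therefore compared only with each other. KO mouse 11 (26 weeks, ALF, ZT 8) had the lowest correlation with the rest of its own group of all mice, 0.925 against a median of 0.984. Old mouse 4 under ALF (0.9335) and WT mouse 13 under TRF (0.9372) came next, and neither was left out on its own. Results that KO mouse 11 changes are given with and without that mouse, a choice made after seeing the data.

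At their mean levels and the median depth, the 6 genes corresponded to 401 reads for Fbxo30, 456 for Foxo1, 672 for Foxo3, 3472 for Foxo4, 5100 for Trim63 and 7133 for Fbxo32. On the log2 FPKM scale, which corrects for transcript length, Trim63 (chromosome 4, 134315120 to 134329629) averaged 6.33 over all mice and Fbxo32 (chromosome 15, 58175879 to 58214932) 5.52. Foxo4 (chromosome X, 101254528 to 101260873), at 5.48, was the most abundant FOXO transcript. Foxo3 (chromosome 10, 42181841 to 42276755) averaged 1.99 and Foxo1 (chromosome 3, 52268336 to 52353221) 1.24. Fbxo30 (chromosome 10, 11281330 to 11298052) averaged 1.79, so it was the rarest of the 3 ligases. Coordinates are those of the GENCODE genes on GRCm38.

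The spread of group means was set against that of mice within a group. The distance between the lowest and the highest group mean was 0.58 log2 units for Fbxo32, 0.54 for Trim63, 0.73 for Fbxo30, 0.56 for Foxo1, 0.35 for Foxo3 and 0.61 for Foxo4. The median SD within a group was 0.59, 0.45, 0.32, 0.59, 0.31 and 0.17 in the same order of genes. The span of means exceeded this SD for Foxo4, Fbxo30, Trim63 and Foxo3, and fell short of it for Fbxo32 and Foxo1, the most scattered among mice of 1 group. In the 11 groups outside Br-RE and RE-RE, neighbouring group means differed by less than the median SD for 5 of the 6 genes. The exception was Foxo4, whose mean in KO mice of 10 weeks stood 0.23 above that of KO mice of 26 weeks, against a median SD of 0.16.

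**Figure D1:**
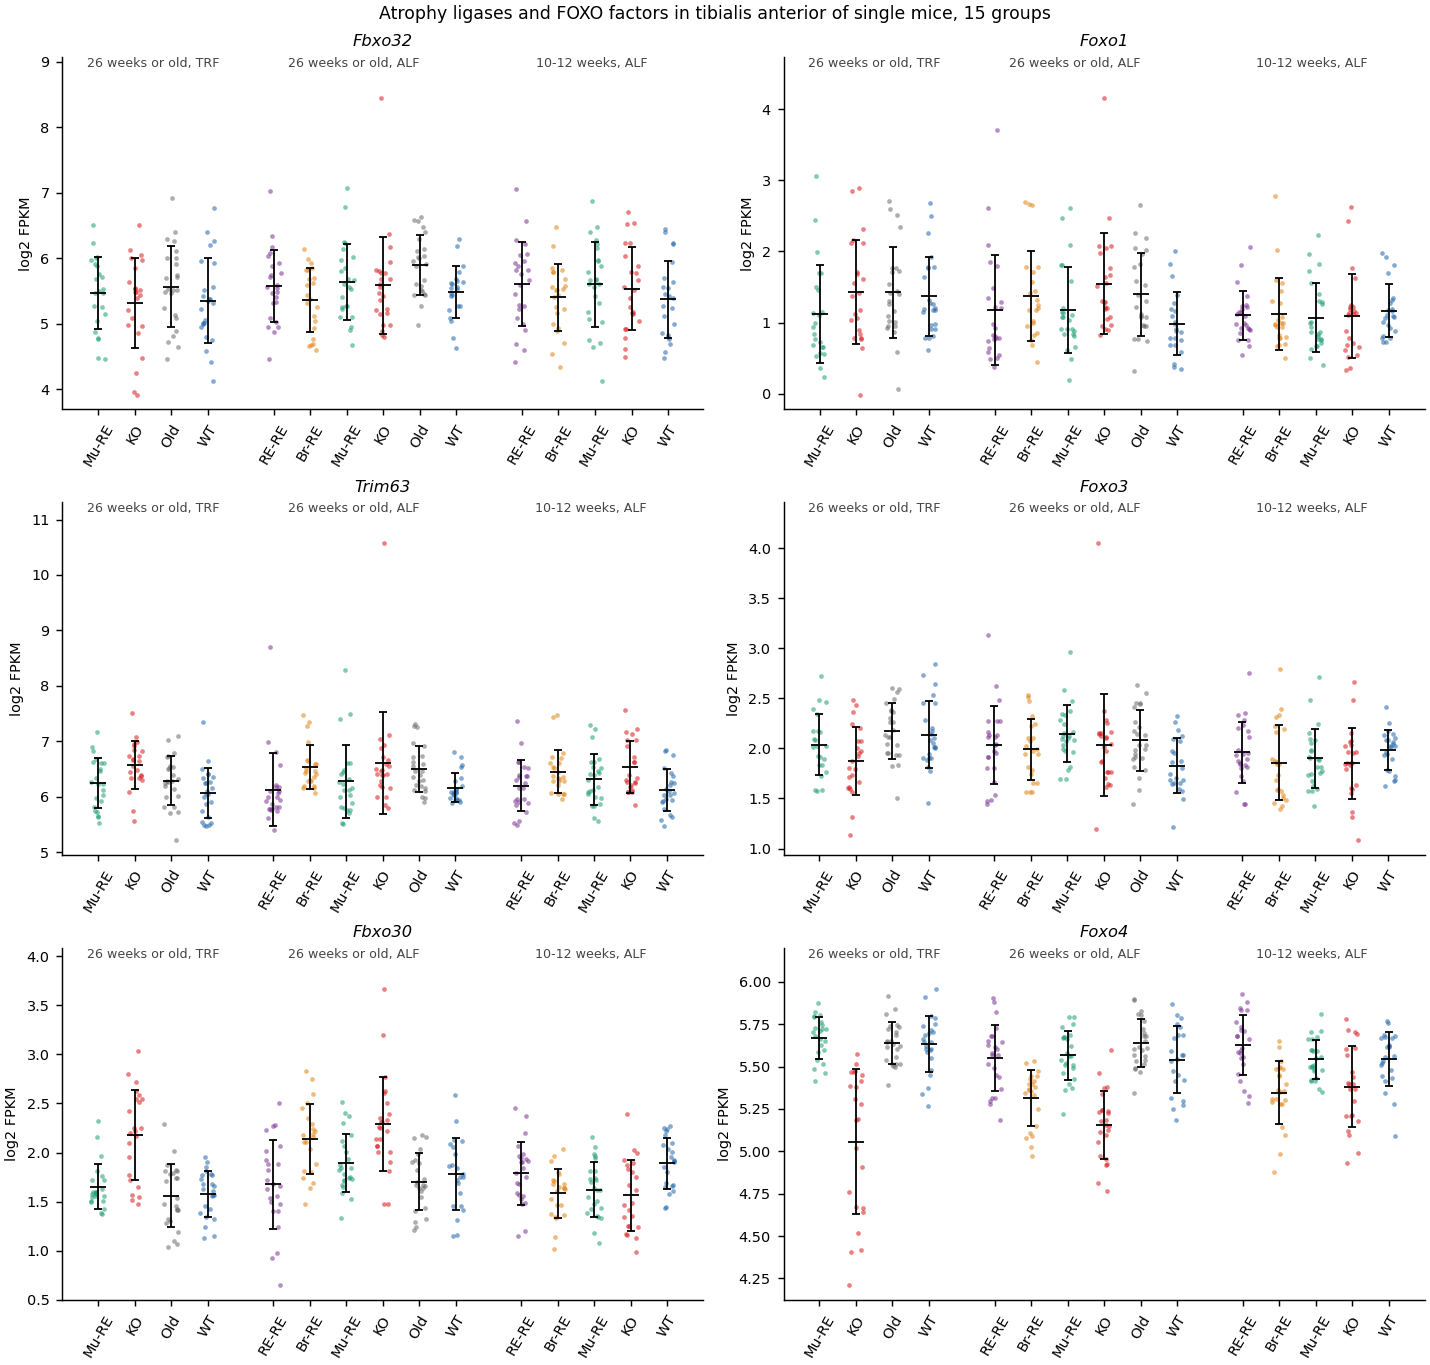
Log2 FPKM of each gene in every mouse (points) with the group mean ± SD (bars), groups along the horizontal axis ordered as feeding and age blocks. Group means of Fbxo32 span 0.58 log2 units, within the scatter of single mice, while Foxo4 is lowest in the KO groups under TRF and at 26 weeks.

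The first question was what loss of Bmal1 does to these genes. Trim63 was higher in KO than in WT muscle at 10 weeks and under TRF, Fbxo30 was lower in KO at 10 weeks and higher at 26 weeks, and Foxo4 was lower in KO in every setting. Fbxo32 passed the test in none of the 3 settings. At 10 weeks 3 of the 6 genes were called (limma, Benjamini-Hochberg adjusted p under 0.05), where 41.8% of all genes were. At 26 weeks it was 3 of 6 against 46.3%, and under TRF 4 of 6 against 51.8%. These shares are near the background, so the count itself does not set the genes apart, and the ranges of KO and WT mice overlapped for every gene. In whole muscle, fewer cells of a type and less RNA per cell cannot be told apart.

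Among the ligases, Trim63 at 10 weeks had a lowest, median and highest log2 FPKM of 5.84, 6.34 and 7.56 in KO mice, against 5.47, 6.07 and 6.84 in WT mice. The ranges overlapped, yet 22 of 23 KO mice lay above the WT median, and the difference was 0.42 ± 0.12 (SE), or 1.34-fold (adjusted p = 0.0037, limma). This call was lost without mouse 2 of every time point (adjusted p = 0.062). Under TRF the difference was 0.48 ± 0.12 (adjusted p = 0.00096), with 21 of 23 KO mice above the WT median. At 26 weeks under ALF it was 0.43 ± 0.19 and missed the threshold (adjusted p = 0.062). Without KO mouse 11, whose Trim63 was 10.57 against 5.79 to 7.11 in the other 23 KO mice, it was smaller and passed, 0.27 ± 0.10 (adjusted p = 0.020).

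Fbxo30 encodes an F-box protein of an SCF ligase that FOXO3 and BMP-SMAD signalling control in denervated muscle. At 10 weeks it had a lowest, median and highest of 0.99, 1.49 and 2.40 in KO mice, against 1.43, 1.91 and 2.27 in WT mice, and 19 of 23 KO mice lay below the WT median. At 26 weeks the values were 1.47, 2.26 and 3.67 in KO mice, against 1.15, 1.77 and 2.59 in WT mice, and 22 of 24 KO mice lay above the WT median. The fitted difference was thus of opposite sign at the 2 ages, -0.33 ± 0.09 at 10 weeks (adjusted p = 0.0020) and 0.50 ± 0.12 at 26 weeks (adjusted p = 0.00058). The difference between them was itself 0.83 ± 0.15 (adjusted p = 1.8e-05), in a comparison that called 18.8% of genes. Under TRF at 26 weeks the difference was 0.58 ± 0.09 (adjusted p = 6.8e-07).

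Fbxo32, whose product joins substrates to an SCF ligase, had a lowest, median and highest of 4.49, 5.52 and 6.71 in KO mice of 10 weeks, against 4.47, 5.40 and 6.45 in WT mice. The differences were 0.17 ± 0.16 at 10 weeks, 0.10 ± 0.17 at 26 weeks and -0.05 ± 0.15 under TRF, with adjusted p of 0.40, 0.67 and 0.80. The 95% interval at 10 weeks reached from -0.13 to 0.48, so a difference of the size seen for Trim63 was within it.

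Among the FOXO factors, Foxo4 moved furthest for its spread. At 26 weeks it had a lowest, median and highest of 4.77, 5.17 and 5.60 in KO mice, against 5.18, 5.56 and 5.87 in WT mice, and 23 of 24 KO mice lay below the WT median. Under TRF it had 4.21, 5.19 and 5.58 in KO mice, against 5.27, 5.65 and 5.96 in WT mice, and all 23 KO mice lay below the WT median. The differences were -0.16 ± 0.06 at 10 weeks (adjusted p = 0.026), -0.39 ± 0.06 at 26 weeks (1.8e-06) and -0.56 ± 0.09 under TRF (1.8e-06). The call at 10 weeks was lost without mouse 1 of every time point (limma adjusted p = 0.13) and without mouse 2 (0.063). The difference between 26 and 10 weeks missed the threshold at -0.22 ± 0.09 (adjusted p = 0.054), and passed without KO mouse 11 at -0.24 ± 0.08 (adjusted p = 0.034).

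Foxo1, the FOXO most tied to fasting in muscle, was called in KO mice at 26 weeks, where it was higher. Its lowest, median and highest were 0.83, 1.30 and 4.16 in KO mice, against 0.34, 0.90 and 2.01 in WT mice, and 23 of 24 KO mice lay above the WT median. The difference was 0.57 ± 0.17 (adjusted p = 0.0058), and 0.45 ± 0.13 without KO mouse 11 (adjusted p = 0.0033). At 10 weeks it was -0.06 ± 0.13, and the change between the ages was 0.63 ± 0.22 (adjusted p = 0.033). That change missed the threshold on the log2(FPKM + 1) scale (0.44, adjusted p = 0.052), with the transcript length slope of each library as a covariate (0.50, 0.087), and in 3 of 4 fits that left 1 mouse out of every time point (up to 0.19). Foxo3 was lower in KO under TRF, -0.27 ± 0.10 (adjusted p = 0.015), with 16 of 23 KO mice below the WT median. This Foxo3 call was also lost when 1 mouse of every time point was left out.

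The second question was how muscle with Bmal1 returned to muscle alone compares. In Mu-RE muscle Foxo4 was higher than in KO muscle in all 3 settings, and Fbxo30 was lower than in KO at 26 weeks under both feedings. These comparisons share the KO mice with those above, so the values are given side by side only. Of the 6 genes, 1 was called at 10 weeks where 34.6% of all genes were, 2 at 26 weeks where 33.9% were, and 3 under TRF where 36.5% were.

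Foxo4 at 26 weeks had a lowest, median and highest of 5.22, 5.56 and 5.79 in Mu-RE mice, against 4.77, 5.17 and 5.60 in KO mice, and all 24 Mu-RE mice lay above the KO median. The difference was 0.42 ± 0.05 (adjusted p = 1.3e-08), with 0.17 ± 0.05 at 10 weeks (0.014) and 0.61 ± 0.09 under TRF (4.2e-07). The call at 10 weeks was lost without mouse 1 of every time point (limma adjusted p = 0.058) and without mouse 2 (0.068). Against WT, the Mu-RE differences of Foxo4 were -0.00, 0.03 and 0.03, none called, and the bound farthest from 0 among the 95% intervals was 0.13. Fbxo30 differed from KO by -0.38 ± 0.11 at 26 weeks (adjusted p = 0.0050) and -0.51 ± 0.09 under TRF (1.1e-05), where 22 of 23 Mu-RE mice lay below the KO median. At 10 weeks it differed from KO by 0.05 ± 0.09 and from WT by -0.28 ± 0.07 (adjusted p = 0.0034). The call against WT was lost without mouse 1 of every time point (limma adjusted p = 0.082).

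Trim63 in Mu-RE mice differed from KO by -0.23 ± 0.13, -0.32 ± 0.22 and -0.31 ± 0.12 at 10 weeks, 26 weeks and under TRF, and the last alone was called (adjusted p = 0.036). That call was lost in the fit of all 15 groups (limma adjusted p = 0.068) and without mouse 1 of every time point (0.19). Foxo3 differed between Mu-RE and KO mice at 26 weeks by 0.12 ± 0.12 (adjusted p = 0.46), and without KO mouse 11 by 0.21 ± 0.08 (0.043). Foxo3 was higher in Mu-RE than in WT mice at 26 weeks, 0.33 ± 0.08 (adjusted p = 0.0018), with 22 of 24 mice above the WT median. It missed the threshold at 0.19 (adjusted p = 0.060) once the slope of each library on transcript length was a covariate. Against WT, 1 of the 6 genes was called at 10 weeks (26.5% of all genes), 1 at 26 weeks (30.8%) and none under TRF (32.1%).

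Muscle Bmal1 was also compared on top of brain Bmal1, as RE-RE against Br-RE, which share no mice with the groups above. Foxo4 was again higher with muscle Bmal1 at both ages, and Fbxo30 was higher at 10 weeks and lower at 26 weeks. Foxo4 at 10 weeks had a lowest, median and highest of 5.29, 5.64 and 5.93 in RE-RE mice, against 4.88, 5.36 and 5.65 in Br-RE mice, and 22 of 24 RE-RE mice lay above the Br-RE median. The differences of Foxo4 were 0.28 ± 0.05 (adjusted p = 1.2e-05) and 0.24 ± 0.06 (0.00084) at 10 and 26 weeks. Those of Fbxo30 were 0.20 ± 0.08 (0.040) and -0.47 ± 0.12 (0.0012). The first was lost under 4 alternatives, with adjusted p of 0.052 to 0.089, and in 3 of 4 fits that left mice out.

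Trim63 at 26 weeks had a lowest, median and highest of 5.40, 5.96 and 8.71 in RE-RE mice, against 6.07, 6.44 and 7.47 in Br-RE mice, and 20 of 24 RE-RE mice lay below the Br-RE median. The difference was -0.40 ± 0.16 (adjusted p = 0.042), and -0.51 ± 0.11 without RE-RE mouse 19, which held the value of 8.71 (adjusted p = 0.00019). With mouse 19 kept, the call was lost under 1 alternative other than leaving mice out. It was also lost without mouse 1 of every time point (limma adjusted p = 0.072) and without mouse 2 (0.22). In all, 2 of 6 genes were called at 10 weeks (32.2% of all genes) and 3 of 6 at 26 weeks (35.3%). Whether muscle Bmal1 acted differently with and without brain Bmal1 was tested directly, and none of the 6 genes passed at 10 weeks (0.0203% of all genes did) or at 26 weeks (0% did). By unadjusted p the nearest was Foxo4 at 26 weeks, -0.18 ± 0.08 (p = 0.024, adjusted p = 0.86, limma).

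**Figure D2:**
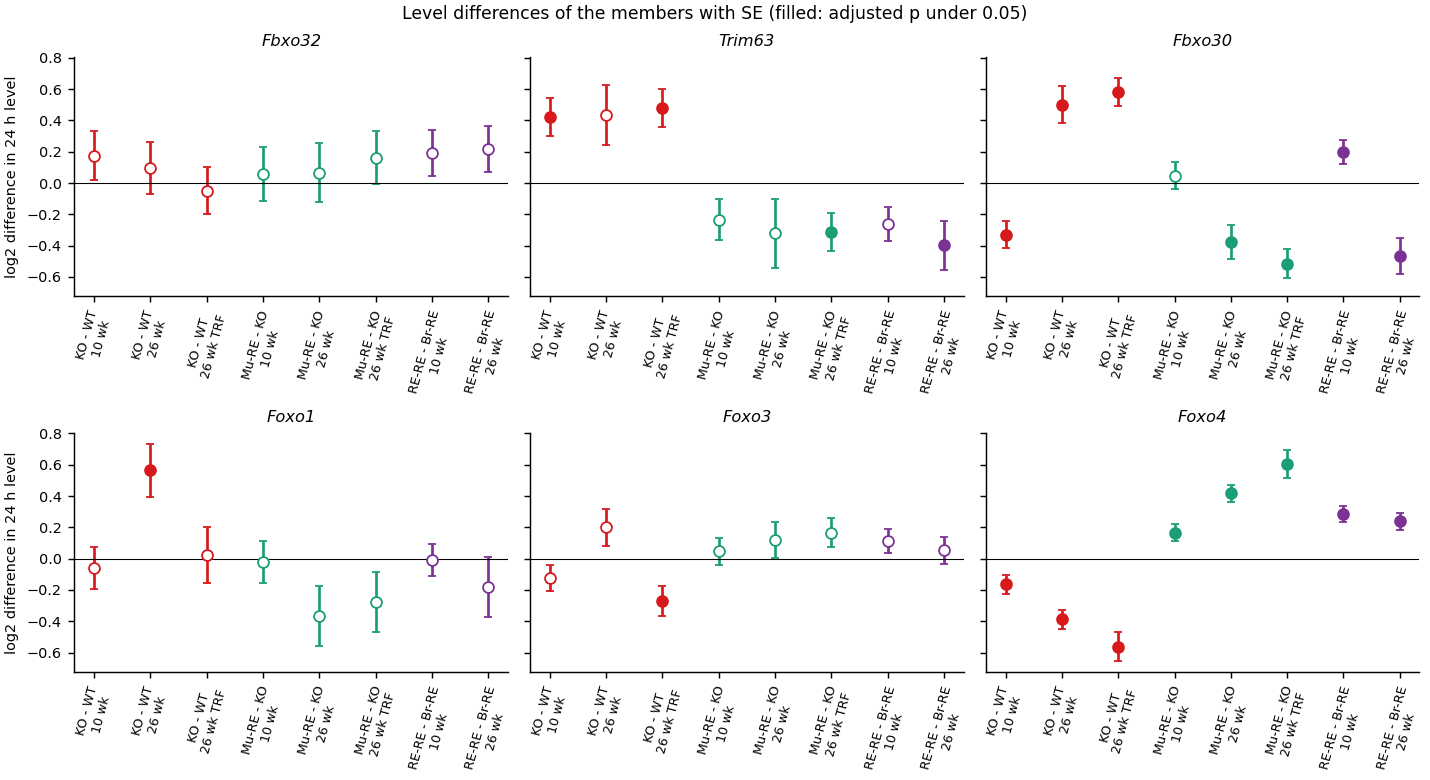
Log2 differences ± SE of the 6 genes for KO minus WT, Mu-RE minus KO and RE-RE minus Br-RE, at each age and feeding, with filled symbols where the limma adjusted p was under 0.05. Foxo4 lies below 0 in all 3 KO minus WT settings and above 0 wherever muscle Bmal1 was added, while Fbxo30 of KO minus WT changes sign between 10 and 26 weeks.

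Genes around the 6 changed in KO muscle in both directions. Of 25 known FOXO targets, 12 were higher and 6 lower in KO than in WT at 10 weeks, 7 higher and 5 lower at 26 weeks, and 12 higher and 4 lower under TRF. Their median differences were 0.16, 0.15 and 0.11 log2 units, beside medians over all genes of -0.00, 0.00 and -0.00. Sesn3, a sestrin that restrains mTORC1, was higher at 10 weeks (0.64 ± 0.15), at 26 weeks (1.97 ± 0.18) and under TRF (1.04 ± 0.16). Depp1, a regulator of autophagy, was higher by 2.13 ± 0.38 at 26 weeks, and Pdk4, the fasting kinase that shuts pyruvate dehydrogenase, by 0.96 ± 0.38 at 10 weeks. Of all genes, 20.3% were higher and 21.6% lower at 10 weeks, 24.4% and 22% at 26 weeks, and 25% and 26.9% under TRF. The list was chosen with results of these data known and is described only by these counts.

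Of 10 genes that respond to glucocorticoids, 6 were lower and none higher in KO at 10 weeks, with a median of -0.72. At 26 weeks 2 were lower and 1 higher, and under TRF 5 were lower and none higher, with medians of -0.06 and -0.56. Fkbp5, a chaperone induced by the glucocorticoid receptor, was lower at 10 weeks (-1.40 ± 0.30) and at 26 weeks (-0.99 ± 0.29). Glul, glutamine synthetase, was lower at 10 weeks (-1.36 ± 0.16). Trim63 was higher in the same KO mice of 10 weeks, and a link to the genes of this list was not tested.

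Of 19 tested genes upstream of FOXO, 2 were higher and 9 lower in KO at 10 weeks, 5 and 6 at 26 weeks, and 4 and 11 under TRF. Akt1, the kinase that keeps FOXO in the cytoplasm, was lower at 10 weeks (-0.44 ± 0.06), as was the insulin receptor substrate Irs2 (-0.92 ± 0.26). At 26 weeks Mstn (myostatin) was lower (-0.66 ± 0.16) and Pik3ca higher (0.58 ± 0.10). Of 20 other ubiquitin ligases of muscle, 5 were higher and 6 lower at 10 weeks, 7 and 5 at 26 weeks, and 4 and 9 under TRF. Of 13 genes of ubiquitin, its E1 and E2 enzymes and the SCF core, 3 were higher and 2 lower at 10 and at 26 weeks. Myog (myogenin), which rises on denervation and drives Fbxo32 and Trim63 there, was higher in KO by 0.42 ± 0.17, 1.91 ± 0.15 and 1.70 ± 0.17 in the 3 settings. It belongs to a list of 9 denervation genes, of which Chrna1, Hdac4 and Musk were also tested. Their differences are not given here, so the values of Myog do not describe the list. Fbxo32 was called in none of these settings, and a link of Myog to Fbxo32 or Trim63 was not tested.

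Markers of other cells moved with the same comparison. All 5 tested genes of the macrophage list of 9 were lower in KO at 10 weeks, and 4 were lower at 26 weeks and under TRF, while Adgre1 of that list, at a mean of -2.47 log2 FPKM, was too low to be tested. The summed list was 13.1 to 52.2 FPKM in KO mice of 10 weeks (median 29.4), against 28.3 to 89.9 in WT mice (median 52.0). The summed fibroblast list at 26 weeks was 26.0 to 123.4 FPKM in KO mice (median 67.3), against 61.9 to 222.0 in WT mice (median 121.9), with 3 of 5 tested genes lower. The summed endothelial and mural list at 26 weeks was 115.5 to 270.6 FPKM in KO mice (median 165.3), against 104.8 to 207.9 in WT mice (median 147.5), with 6 of 7 tested genes higher. The part of these markers in the differences of the 6 genes was not tested.

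Age was compared within genotypes. In KO muscle Fbxo30 was higher at 26 than at 10 weeks, and in old wild-type mice under ALF Fbxo32, Trim63, Foxo1 and Foxo3 were higher than at 26 weeks. Fbxo30 had a lowest, median and highest of 1.47, 2.26 and 3.67 in KO mice of 26 weeks, against 0.99, 1.49 and 2.40 in KO mice of 10 weeks, a difference of 0.71 ± 0.12 (adjusted p = 1.1e-05). In Mu-RE mice it was 0.28 ± 0.07 (adjusted p = 0.0038), and in WT mice -0.12 ± 0.09 (0.29). Foxo4 was lower at 26 weeks in KO mice, -0.23 ± 0.06 (0.0065), and Foxo3 higher in Mu-RE mice, 0.24 ± 0.08 (0.012). The Foxo3 call was lost without mouse 1 of every time point (limma adjusted p = 0.058). None of the 6 genes was called in WT mice, where 37% of all genes were, and 2 were in KO (25.3%) and in Mu-RE (32.4%).

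In old mice under ALF, 4 of the 6 genes were higher than at 26 weeks and none lower, where 24.2% of all genes were called, 12.9% higher and 11.2% lower. Fbxo32 had a lowest, median and highest of 4.98, 5.93 and 6.63 in old mice, against 4.63, 5.53 and 6.29 in WT mice of 26 weeks, a difference of 0.41 ± 0.12 (adjusted p = 0.011). Trim63 had 5.90, 6.42 and 7.30 in old mice, against 5.88, 6.08 and 6.81 at 26 weeks, and 21 of 24 old mice lay above the median of the younger ones (0.33 ± 0.10, adjusted p = 0.012). Foxo1 differed by 0.42 ± 0.13 (0.013) and Foxo3 by 0.25 ± 0.08 (0.024). Fbxo30 differed by -0.08 ± 0.09 and Foxo4 by 0.10 ± 0.05, neither called.

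The excess of the old mice was not even over the day. At ZT 16, Trim63 was 6.55, 7.25, 7.28 and 7.30 in the 4 old mice, against 6.05, 6.14, 6.71 and 6.81 in the 4 mice of 26 weeks. At ZT 12 it was 5.90, 6.11, 6.19 and 6.21 in old mice, against 5.88, 5.90, 5.94 and 6.28 at 26 weeks, which overlapped. Fbxo32 at ZT 16 was 6.11, 6.40, 6.47 and 6.63 in old mice, all above the 5.09, 5.43, 5.44 and 5.62 at 26 weeks. The rhythms of the 2 ages were not called different for any of the 6 genes (0% of all genes were; 0 of the 6 at unadjusted p under 0.05), so this course is a description.

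Under TRF no gene of the 6 was called between old mice and mice of 26 weeks, where 9.84% of all genes were. There Fbxo32 differed by 0.21 ± 0.12 (adjusted p = 0.30) and Trim63 by 0.21 ± 0.12 (0.27), and without mouse 4 of every time point both were called, at 0.44 (0.034) and 0.42 (0.019). All 4 calls under ALF were lost when mouse 1 of every time point was left out, with adjusted p of 0.090 to 0.30. Of these calls, that of Trim63 was also lost in the fit of all 15 groups (limma adjusted p = 0.0745). Beside these calls, all 5 tested fibroblast genes were lower in old mice, with summed levels of 20.5 to 218.4 FPKM in old mice (median 60.9), against 61.9 to 222.0 at 26 weeks (median 121.9). Their part in the result was not tested. Of the FOXO targets 5 were higher and 2 lower in old mice, with Depp1 at 1.54 ± 0.32, Cebpb at 1.36 ± 0.15 and the cell cycle inhibitor Cdkn1b at -0.67 ± 0.05.

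Feeding was compared within genotype. In WT muscle Foxo1 and Foxo3 were higher under TRF than under ALF, and the level of no ligase was called. Foxo3 had a lowest, median and highest of 1.45, 2.07 and 2.84 under TRF, against 1.21, 1.78 and 2.32 under ALF, and 22 of 24 TRF mice lay above the ALF median. The difference was 0.32 ± 0.08 (adjusted p = 0.0018), and that of Foxo1 was 0.39 ± 0.14 (0.023), where 41% of all genes were called. In Mu-RE mice Fbxo30 alone was called, -0.24 ± 0.07 (0.016), beside 16.9% of all genes. That call was lost in 3 of the 4 fits that left 1 mouse out of every time point (0.079 to 0.13). In KO and in old mice none of the 6 was called, beside 14.2% and 0.142% of all genes.

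The response of Foxo3 to TRF differed between genotypes. It was -0.15 ± 0.12 in KO and -0.11 ± 0.08 in Mu-RE mice, against 0.32 ± 0.08 in WT mice. The differences between these responses were -0.46 ± 0.16 for KO (adjusted p = 0.021, where 27.5% of all genes were called) and -0.43 ± 0.12 for Mu-RE (0.0031, 34.8%). Old mice did not pass this test for any of the 6 genes (2.1% of all genes did).

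A property of the libraries moved with these Foxo3 results. The slope of a library's log2 deviations on transcript length averaged -0.045 under TRF and -0.002 under ALF in KO mice, and 0.016 and -0.033 in WT mice. With this slope as a covariate both Foxo3 interactions missed the threshold, at -0.19 (adjusted p = 0.42) for KO and -0.19 (0.21) for Mu-RE. The Foxo3 difference of KO against WT under TRF then became -0.09 (0.41), and the Foxo1 response of WT mice 0.24 (0.18). The covariate also added a call, that of Fbxo30 in WT mice, -0.28 (0.012), which without it was -0.19 ± 0.09 (0.067). The Foxo4 and Fbxo30 differences of KO against WT were called with the covariate in all 3 settings.

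The daily course showed more than the level for Fbxo32. In WT mice under TRF its means at ZT 0, 4, 8, 12, 16 and 20 were 5.86, 6.08, 5.60, 5.08, 4.69 and 4.80, and in WT mice under ALF they were 5.41, 5.82, 5.46, 5.18, 5.39 and 5.66. The fitted amplitude was 0.74 ± 0.10 under TRF with a peak at ZT 4.12 ± 0.54 h (adjusted p = 5.9e-05), a 2.78-fold change between trough and peak. Under ALF it was 0.19 ± 0.11 (adjusted p = 0.9998). The rhythm test called 37.8% of all genes under TRF and 1.04% under ALF, and Fbxo32 was the only 1 of the 6 called in either. The difference between the 2 courses was close to the threshold and missed it (adjusted p = 0.057, where 3.92% of genes passed).

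In old mice under TRF the means were 6.02, 6.16, 5.69, 5.49, 5.15 and 4.88 over the same times, and under ALF 5.53, 6.14, 5.84, 5.32, 6.40 and 6.13. The amplitude under TRF was 0.57 ± 0.13 with a peak at ZT 4.58 (adjusted p = 0.029), and under ALF 0.18 ± 0.12 (0.80). With the 6 times as a factor, Fbxo32 missed the threshold under TRF (0.070) and passed under ALF (0.022), as Trim63 did there (0.026). The call under TRF was also lost in all 4 fits that left mice out (0.088 to 0.16). Fbxo30 was called beside it under TRF, with an amplitude of 0.29 ± 0.06 and a peak at ZT 5.85 (adjusted p = 0.016), a call lost with the 6 times as a factor (0.082) and in 3 of the 4 fits that left mice out (0.10 to 0.19). The test called 5.71% of genes in old mice under TRF and 1.41% under ALF, and no gene of the 6 was called different between the feedings (0% of all genes were; 2 of the 6 had an unadjusted p under 0.05). In KO and Mu-RE mice under TRF, Fbxo32 had amplitudes of 0.41 ± 0.19 and 0.39 ± 0.14, neither called, beside 6.2% and 6.97% of genes.

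**Figure D3:**
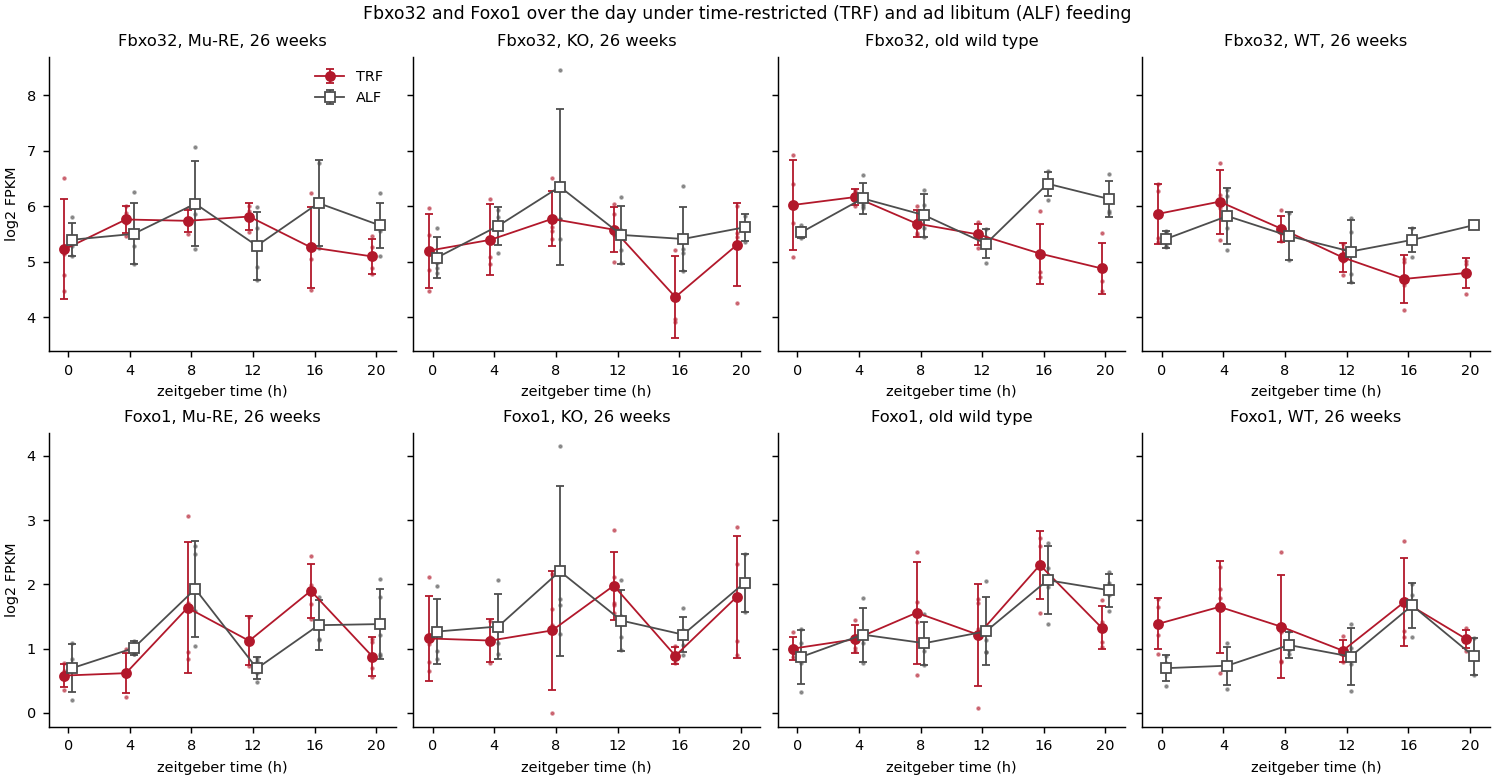
Fbxo32 and Foxo1, in log2 FPKM against zeitgeber time, under TRF and ALF in Mu-RE, KO, old and WT mice (points are mice, lines join means ± SD). Fbxo32 in WT mice under TRF falls between ZT 4 (mean 6.08) and ZT 16 (mean 4.69).

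Under ALF at 10 weeks, the rhythm test called 5 of the 6 genes in Br-RE muscle, beside 29% of all genes, and 2 in WT muscle, beside 5.84%. Of the 5 in Br-RE, Foxo3 alone was called in the fit of all 15 groups and with the length slope as a covariate, and both in WT were lost in each of the 4 fits that left mice out. Levels of Br-RE and WT cannot be compared, so only the shape of each course is described. Foxo3 had means of 1.66, 1.50, 1.51, 2.16, 2.41 and 1.83 at ZT 0 to 20 in Br-RE mice, and 1.73, 2.00, 2.07, 2.10, 1.94 and 1.99 in WT mice. Within Br-RE, the values of 2.19, 2.31, 2.33 and 2.79 at ZT 16 all lay above the 1.45, 1.49 and 1.59 at ZT 8, while in WT the values at these times overlapped. Its amplitude in Br-RE was 0.44 ± 0.06 with a peak at ZT 15.4 ± 0.5 h (adjusted p = 0.00035), and the 2 courses were called different (adjusted p = 0.0022, where 19.3% of genes were). Without mouse 2 of every time point that difference missed the threshold (0.061).

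Foxo1 peaked after dusk in both, with an amplitude of 0.49 ± 0.10 at ZT 14.1 in Br-RE (adjusted p = 0.0052), against 0.37 ± 0.08 at ZT 13.9 in WT (0.012), and the courses were not called different (0.73). Fbxo32 peaked at ZT 10.4 in Br-RE (amplitude 0.38 ± 0.12, adjusted p = 0.045), against ZT 4.43 in WT (0.51 ± 0.13, 0.049). The test of the difference between the courses gave an adjusted p of 0.050, just over the threshold, and passed without the sex term (0.046), on the log2(FPKM + 1) scale (0.049) and with the replicate block (0.043).

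Trim63, with a peak at ZT 12.5 and an amplitude of 0.32 ± 0.09 (adjusted p = 0.024), and Foxo4, with 0.15 ± 0.05 at ZT 14.8 (0.0499), were called in Br-RE and not in WT. Both courses were called different from WT (adjusted p = 0.034 and 0.030), as was that of Fbxo30 (0.048). These 4 calls were not firm: none remained when all 15 groups shared 1 estimate of the spread, where Foxo3 had an adjusted p of 0.061. Leaving out the WT mouse 1 of ZT 0 moved Trim63 to 0.061 and Fbxo30 to 0.076, and Fbxo32 to 0.028, which is a call.

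**Figure D4:**
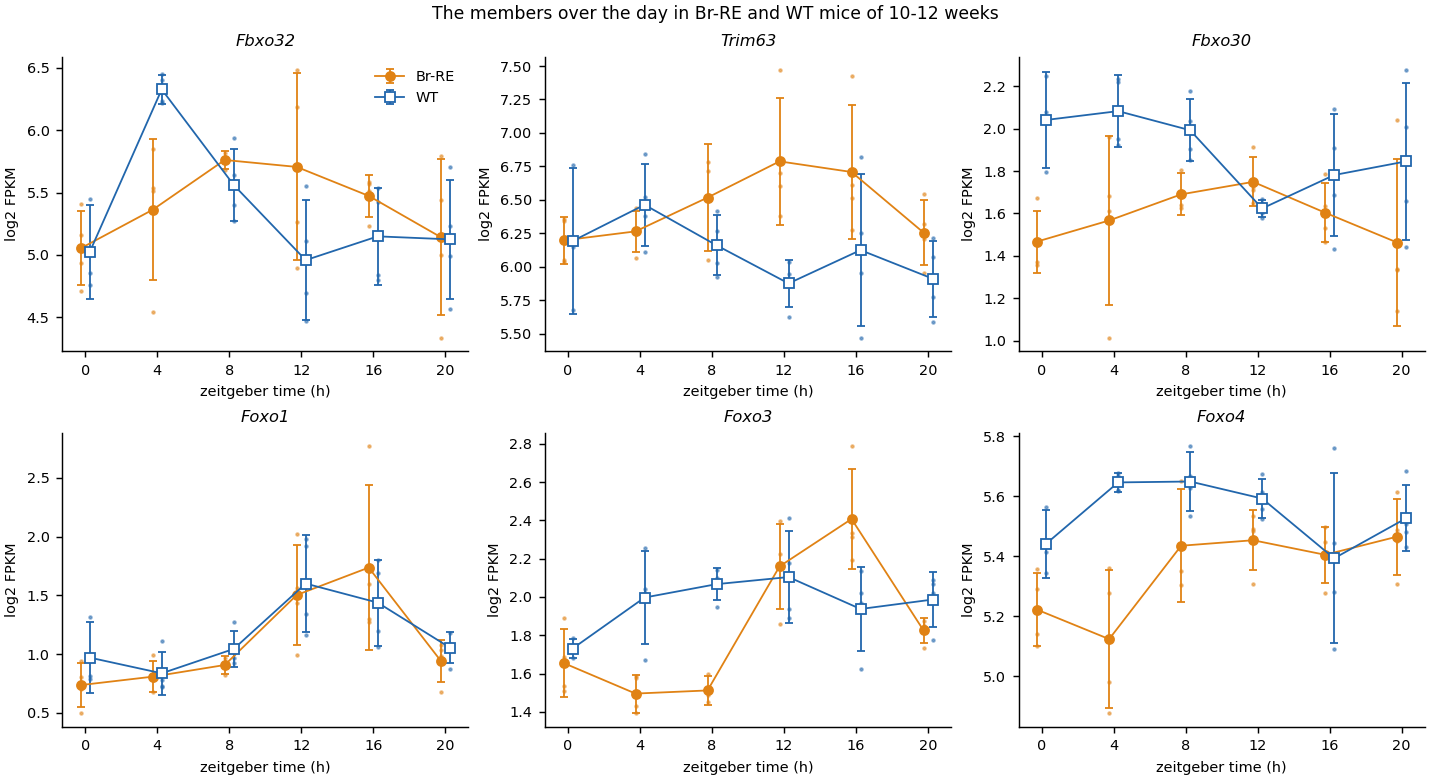
Log2 FPKM of the 6 genes against zeitgeber time in Br-RE and WT mice of 10 weeks under ALF (points are mice, lines join means ± SD). The courses of Foxo1 were not called different, while Foxo3 in Br-RE has its highest mean at ZT 16 (2.41). Heights of the curves cannot be compared between Br-RE and WT.

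Over all 15 groups and 6 genes, 10 of 90 rhythm tests were called, 4 of them for Fbxo32. Of the calls, 5 were in Br-RE and 2 in WT mice of 10 weeks, where 29% and 5.84% of all genes were called. WT mice under TRF held 1 and old mice under TRF 2, beside 37.8% and 5.71% of all genes. The pooled count therefore depends largely on the group. No call was in a KO or Mu-RE group or in a RE-RE group, where at most 6.97% of all genes were called. In Mu-RE mice under TRF, 4 of the 6 had an unadjusted p under 0.05, and 1 in KO mice under TRF. In the fit of all 15 groups, Foxo1 of the former (limma adjusted p = 0.029) and Fbxo30 (0.0019) and Foxo4 (0.033) of the latter were called. With the length slope as a covariate, Foxo1 (0.014) and Foxo3 (0.0045) of the former and Fbxo30 (0.0498) of the latter were. In no setting was the course of any of the 6 genes called different between KO and WT (0.517%, 0.172% and 0.598% of all genes at 10 weeks, 26 weeks and under TRF; 0 of the 6 at unadjusted p under 0.05 in each). RE-RE and WT were not called different either, at 10 weeks (0%) or 26 weeks (0.0101%), with 0 of the 6 at unadjusted p under 0.05. Fbxo32 in RE-RE of 10 weeks had an amplitude of 0.50 ± 0.14 with a peak at ZT 1.68, not called (adjusted p = 0.29). RE-RE against Br-RE at 10 weeks called none of the 6 (0.152% of all genes), though 5 had an unadjusted p under 0.05 and the smallest adjusted p was 0.14.

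The remaining comparisons of rhythms called none of the 6 genes either. Against KO, the shares of all genes called were 0% for Mu-RE at both ages, 0.913% and 0% for Br-RE and 0.152% and 0.071% for RE-RE at 10 and 26 weeks. At 26 weeks it was 0.0913% for RE-RE against Br-RE and for Br-RE against WT, and RE-RE against Mu-RE gave 0.152% at 10 and 0.0608% at 26 weeks. Age gave 0% within WT, KO and Mu-RE and 0.0203% between old mice and mice of 26 weeks under TRF, and feeding gave 4.86% in Mu-RE and 0% in KO. At an unadjusted p under 0.05 these held at most 2 of the 6 genes each, and the smallest adjusted p was that of Foxo3 for Br-RE against KO at 10 weeks (0.12). The groups with few calls of any gene were RE-RE (0.588% and 0.76% at 10 and 26 weeks), Br-RE at 26 weeks (0.69%), and KO and Mu-RE under ALF (0.071% each at 10 weeks, 0% each at 26 weeks).

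Among mice of the same group and time, the genes varied together in pairs. Deviations of all mice from the mean of their group and ZT correlated between Fbxo32 and Trim63 with Pearson's r of 0.755 and Spearman's rho of 0.726. Between Foxo1 and Foxo3 they gave 0.759 and 0.745. Both had permutation p-values of 1e-05, the smallest that 100000 permutations can give, and adjusted p of 2e-05 over the 15 pairs. Without the 2 mice farthest from the median of the first gene, r was 0.731 and 0.728. Within the 3 sets of libraries that had been centred separately it was 0.602 to 0.785 and 0.682 to 0.800.

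Pairs of a ligase and a factor were weaker, with r of 0.525 for Trim63 and Foxo3, 0.514 for Trim63 and Foxo1, 0.480 for Fbxo32 and Foxo3 and 0.368 for Fbxo32 and Foxo1 (adjusted permutation p = 2e-05 each). Fbxo30 followed Trim63 (0.497) and Fbxo32 (0.400), while its r with Foxo1 and Foxo3 was 0.129 and 0.133, neither past the threshold (adjusted permutation p = 0.074 and 0.085). With the length slope removed both passed, at 0.190 (adjusted permutation p = 0.0076) and 0.251 (0.0011). Foxo4 had r between -0.113 and 0.179 with the other 5 genes. In all, 11 of 15 pairs passed, and 10 without KO mouse 11, where Trim63 and Foxo4 (0.125) and Fbxo30 and Foxo4 (0.119) no longer passed and Foxo1 and Foxo4 did (-0.160). Pairs of other genes were not tested in this way, so the count does not set these genes apart.

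**Figure D5:**
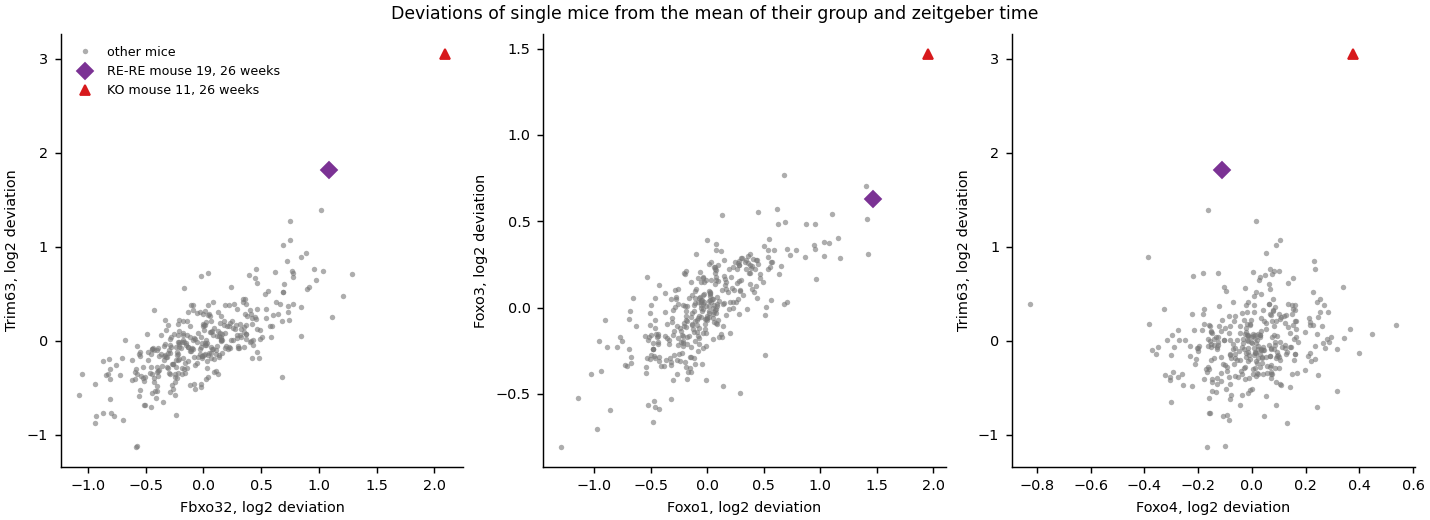
Deviations of each mouse from the mean of its group and zeitgeber time, in log2 units, for Trim63 against Fbxo32, Foxo3 against Foxo1 and Trim63 against Foxo4. The first 2 panels slope upward (r of 0.755 and 0.759) and the third hardly does (0.177), and KO mouse 11 and RE-RE mouse 19 lie at the upper edge of the first 2.

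Single mice reached far beyond any group difference. KO mouse 11, at ZT 8, was the highest of all mice for 5 of the 6 genes, with 10.57 log2 FPKM for Trim63 (1518 FPKM), 8.44 for Fbxo32, 3.67 for Fbxo30, 4.16 for Foxo1 and 4.05 for Foxo3. The medians of the other 23 mice of its group were 6.42, 5.47, 2.25, 1.29 and 2.01. Foxo4 was 5.60, which ranked 134 over all mice and was above the 4.77 to 5.46 of the other 23 mice of its group. RE-RE mouse 19, at ZT 16, ranked 2 for Trim63 (8.71), Foxo1 (3.70) and Foxo3 (3.14), 4 for Fbxo32 (7.03), and 287 for Foxo4 (5.30). Ranks over all mice cross sets of libraries that were centred separately, so they only describe the deposited values. In RE-RE mouse 19, Foxo4 lay within the 5.19 to 5.91 of its group.

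By likeness over the 66 means of group and time outside Br-RE and RE-RE, the genes nearest to Fbxo32 were Klhl38 (r of 0.737), Ulk1 and Wdr81. Nearest to Trim63 were Zfyve1 (0.729), Tcp11l2 and Sesn1. For Fbxo30 they were Lims1 (0.799), Atp6v1a and Osbpl8, for Foxo1 Wbp1l (0.697), Mast2 and Bcl2l1, for Foxo3 Pcnt (0.842), Acacb and Klf9, and for Foxo4 Kif1c (0.933), Mkrn2 and Fkbp9. Over the 24 means of Br-RE and RE-RE, the first gene of each had an r of 0.858 for Klhl38, 0.438 for Zfyve1, 0.607 for Lims1, 0.911 for Wbp1l, 0.890 for Pcnt and 0.926 for Kif1c. These correlations describe means that share libraries.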

How the data were processed

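The deposited values are log2 FPKM, made by the authors from paired reads of 150 bases on GRCm38. The submitters' processing notes name limma 3.44.1, edgeR 3.30.0, HISAT2 2.1.0, FastQC 0.11.8, featureCounts 1.6.2 and Trim Galore 0.5.0, with no role, order or setting. Zeros stand at a floor of 0.01 FPKM. In the deposited values, female and male means were equal within 9.62e-06 in every gene within 3 sets of 47, 46 and 259 libraries, so sexes were not compared. Depth was recovered from the spacing of low values, of which 92.4% to 98.3% per library lay within 0.1 of a whole read.

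Genes with a mean of at least 0 log2 FPKM (1 FPKM) were kept. limma 3.58.1 (R 4.3.3; trend and robust variance) fitted, over the groups compared, a level, a 24 h cosine and a sine per group, with sex as a term, and p-values were adjusted over all 9862 genes by Benjamini-Hochberg, with calls at 0.05. Rhythms were tested by F tests. SEs of amplitude and peak came from the delta method. The fit was tested on simulated data. P-values measure the spread between mice. Named genes were the 6 members, at most 3 called genes of largest difference per list and comparison, the 3 genes most alike to each member, and Arntl and Dbp. Members and lists were chosen with earlier results of these data known. Deviations of same-numbered mice had mean correlations of -0.058 to 0.154, against at most 0.000661 over all pairs of mice. The share of same-numbered pairs over 0.1 reached 18 of 24, for TRF against ALF in old mice. Numbers were not treated as pairs in the main fit, and a block by number was run as an alternative. Alternatives concerned the sex term, the filter, log2(FPKM + 1), library medians, a fit of all 15 groups, transcript length slope, mice left out, a replicate block and time as a factor. Tables and figures used Python 3.11.15, numpy 2.4.6, pandas 2.3.3, scipy 1.17.1, matplotlib 3.10.9 and version 1.17.8 of data.table.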

Additional observations from a re-analysis of the deposited data

Results flagged for a closer look

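The effect of Bmal1 loss on Fbxo30 and on Foxo1 differed between ages. KO minus WT was larger at 26 than at 10 weeks by 0.83 ± 0.15 log2 units for Fbxo30 (adjusted p = 1.8e-05, limma) and by 0.63 ± 0.22 for Foxo1 (adjusted p = 0.033), a call for Foxo1 that was lost with the length slope as a covariate (0.087) and with log2(FPKM + 1) (0.052). The effect of TRF on Foxo3 differed between genotypes, by -0.46 ± 0.16 for KO against WT (adjusted p = 0.021) and by -0.43 ± 0.12 for Mu-RE against WT (adjusted p = 0.0031). Both calls for Foxo3 were lost with the length slope as a covariate (limma adjusted p = 0.42 and 0.21). That for KO was also lost without mouse 1 of every time point (0.059). The 2 comparisons for Foxo3 share the WT mice, as those for Fbxo30 and Foxo1 share all their mice.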

How the results depend on the processing

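Of 63 called values, 40 were called under all alternatives other than leaving mice out and time as a factor, and no called value reversed in sign. Over all single values and alternatives, 4620 kept their side of the threshold, 139 lost a call and 44 gained 1. Leaving 1 mouse out of every time point gave 3 to 6 calls for Mu-RE against KO (6 with all mice, and 7 without KO mouse 11), 1 to 3 for Mu-RE against WT (2), 3 to 5 for RE-RE against Br-RE (5), 3 to 9 for age (8), 0 to 3 for TRF against ALF (3), 2 to 3 for differences between effects (4), 0 to 3 for rhythms of Br-RE against WT (4) and 3 to 4 for rhythms within groups (10). For KO against WT, fits that left mice out lost the calls of Foxo4 and Trim63 at 10 weeks and that of Foxo3 under TRF, as given above. With the transcript length slope as a covariate, Mu-RE against WT gave 1 call, differences between effects 1 and rhythms of Br-RE against WT 1. Those rhythms gave 2 calls with libraries centred on their medians, 0 in a fit of all 15 groups and 1 with time as a factor. The fit of all 15 groups gave 6 rhythms within groups. Rhythms under TRF against ALF gave 1 call with libraries centred on their medians. With the replicate block they gave 1 as well (Fbxo32 in WT, adjusted p = 0.049), RE-RE against Br-RE gave 3, and Trim63 passed for KO against WT at 26 weeks (0.047). The cause of these changes was not tested. Leaving out KO mouse 11, RE-RE mouse 19 or WT mouse 1 was chosen after seeing the data. Reads were fewest for Fbxo30, Foxo1 and Foxo3, at 401 to 672. The part of depth in their spread was not tested.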

Other observations

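In KO mouse 11, most genes of the FOXO and glucocorticoid lists stood above all other mice. All 10 glucocorticoid genes exceeded the other 23 mice of the group, and 8 were the highest of all mice, among them Cebpd (7.47 log2 FPKM against a median of 2.05 in the others), Mt2 (8.16 against 2.84) and Ddit4 (8.27 against 2.93). Of the 25 FOXO targets 13 were the highest of all mice, led by Depp1 (9.21 against 3.07), Sesn1 (7.84 against 3.21) and Gabarapl1 (8.55 against 4.61), and 8 of the 21 genes upstream of FOXO were, Irs2 with 4.27 against 0.96. None of the 5 skeletal muscle, 7 slow fibre or 5 red blood cell markers lay outside the range of the other mice. Below that range lay 1 of 7 fast fibre markers (Pvalb), 2 of 8 endothelial and mural markers (Kdr and Cspg4) and 1 of 6 fibroblast markers (Col3a1). Of the macrophage list Cd68 lay above it (2.28 against at most 1.40), while the sum of the list, 17.2 FPKM, was within 12.1 to 45.3 in the others. The satellite cell sum was 66.7 FPKM against 12.97 to 20.78 in the others, from Sdc4 (6.05 against 4.02 log2 FPKM), while Pax7 and Myf5 of that list were below the range of the others.

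In RE-RE mouse 19, 9 of the 10 glucocorticoid genes exceeded the rest of the group, with a summed level of 1089 FPKM against 104.7 to 432.6 in the others. In the deposited values this sum was the second highest of all mice after KO mouse 11 (1930), a rank across sets of libraries centred separately. Of the FOXO targets 10 of 25 exceeded the group and 3 lay below it. Fbxo30 was 1.89 there, within the range of the others (0.64 to 2.50). These genes were chosen by their rank after the values were seen.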
